A study of Callithrix jacchus with 4 samples.

Results

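Neurotrophins and their receptors were examined in the frontal cortex of adult marmosets (Callithrix jacchus, a New World monkey), whose RNA was sequenced. The 6 genes were the ligand genes BDNF and NTF3, the TRK receptor genes NTRK2 and NTRK3, the p75 receptor gene NGFR and the sortilin gene SORT1. They were taken by symbol, with earlier results of these data known, and all 6 were among the 35108 genes of the count table. The transgenic group (TG) had 2 libraries, TG1 and TG2, from animals labelled female with an APP transgene. The title of the series describes mutant amyloid precursor protein transgenes under the human EF1α promoter, which is active in most cell types and is not specific to neurons. The wild-type group (WT) had 2 libraries, WT1 and WT2, from adult animals whose sex the labels do not give. No treatment was named for either group, and the comparison asks how cortical expression in TG animals differed from that in WT animals. Whether each library of a group is from its own animal is not stated. The p-values thus measure the spread between libraries, which may be technical where the animal is shared.

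Neurotrophins are secreted growth factors made as precursors and cut to mature proteins inside the cell or after release. Mature BDNF acts through TrkB, the product of NTRK2, and mature NT-3, the product of NTF3, mainly through TrkC, the product of NTRK3. The precursors bind p75, the product of NGFR, together with sortilin, and that pair is known for signalling cell death. In cortex, BDNF is made by excitatory neurons in response to activity and acts on synapses. NTRK2 gives rise to a full-length kinase and to truncated receptors that astrocytes carry, and counts per gene do not separate these forms.

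Total counts were 13462167 and 18932180 in TG1 and TG2 and 12657323 and 13569838 in WT1 and WT2. Levels are given as CPM (read counts scaled to library size), and since transcript lengths were not used, no gene's level is set against another's. APP was at 2143 and 2748 CPM in the TG libraries and at 1822 and 2182 CPM in the WT libraries (adjusted p = 0.80 in edgeR's quasi-likelihood test). The Y-linked gene KDM5D had 0 counts in both TG libraries and 2 and 243 counts in WT1 and WT2. Sex and genotype therefore cannot be told apart in full. The unlike counts mark WT1 and WT2 as different animals, and their spread cannot be told from a difference of sex. TG2 stood apart: over 13092 genes the SD of the log2 CPM difference between TG2 and another library was 0.66 to 0.70, against 0.33 to 0.42 between the other libraries. All 8 markers each of excitatory neurons, inhibitory neurons, oligodendrocytes and microglia and all 10 of astrocytes had counts in every library.

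For none of the 6 genes could a difference between TG and WT cortex be told from the spread between libraries. A filter on low counts kept 4 of them, BDNF, NTRK2, NTRK3 and SORT1, and 0 of these 4 passed an adjusted p of 0.05 in edgeR. In sign 3 of the 4 were higher in TG cortex (49.6% of all genes tested were) and NTRK2 was lower (50.4% were). The same held across the table, where 0 of 16385 genes passed (0%), although 921 (5.62%) had an unadjusted p under 0.05 and DESeq2 called 48 (0.293%). The unadjusted edgeR p of the 4 genes lay between 0.21 and 0.78, and limma-voom also called none of them. With 2 libraries per group the smallest p of an exact two-sided permutation test is 0.33, and no such test was used.

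BDNF, the ligand of TrkB, varied more within each group than between the groups. It was at 34.2 and 20.3 CPM in TG1 and TG2, against 18.3 and 29.8 CPM in WT1 and WT2. TG1 and WT2 were high and TG2 and WT1 low, so that the groups overlapped. The 95% counting intervals (exact Poisson) were 31.2 to 37.5 CPM in TG1 and 18.3 to 22.5 CPM in TG2, against 16.1 to 20.8 CPM in WT1 and 26.9 to 32.8 CPM in WT2. The interval of TG1 overlapped that of WT2, and the interval of TG2 overlapped that of WT1, while no interval of the higher pair reached the lower pair. Counting error therefore left the 1.87-fold span between TG1 and WT1 in place. The group means were 27.3 ± 9.8 CPM in TG and 24.1 ± 8.1 CPM in WT cortex (SD, n = 2 each). The log2 fold change was 0.18 ± 0.35 (SE; 95% interval -0.70 to 1.06; adjusted p = 0.90 in edgeR). Its sign depended on the libraries included: it was -0.25 without TG1, 0.50 without TG2, -0.13 without WT1 and 0.57 without WT2. BDNF overlaps an antisense gene in the human genome, and because the sources used here give no strandedness for these libraries, reads of such a partner could not be told from its own.

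**Figure D1:**
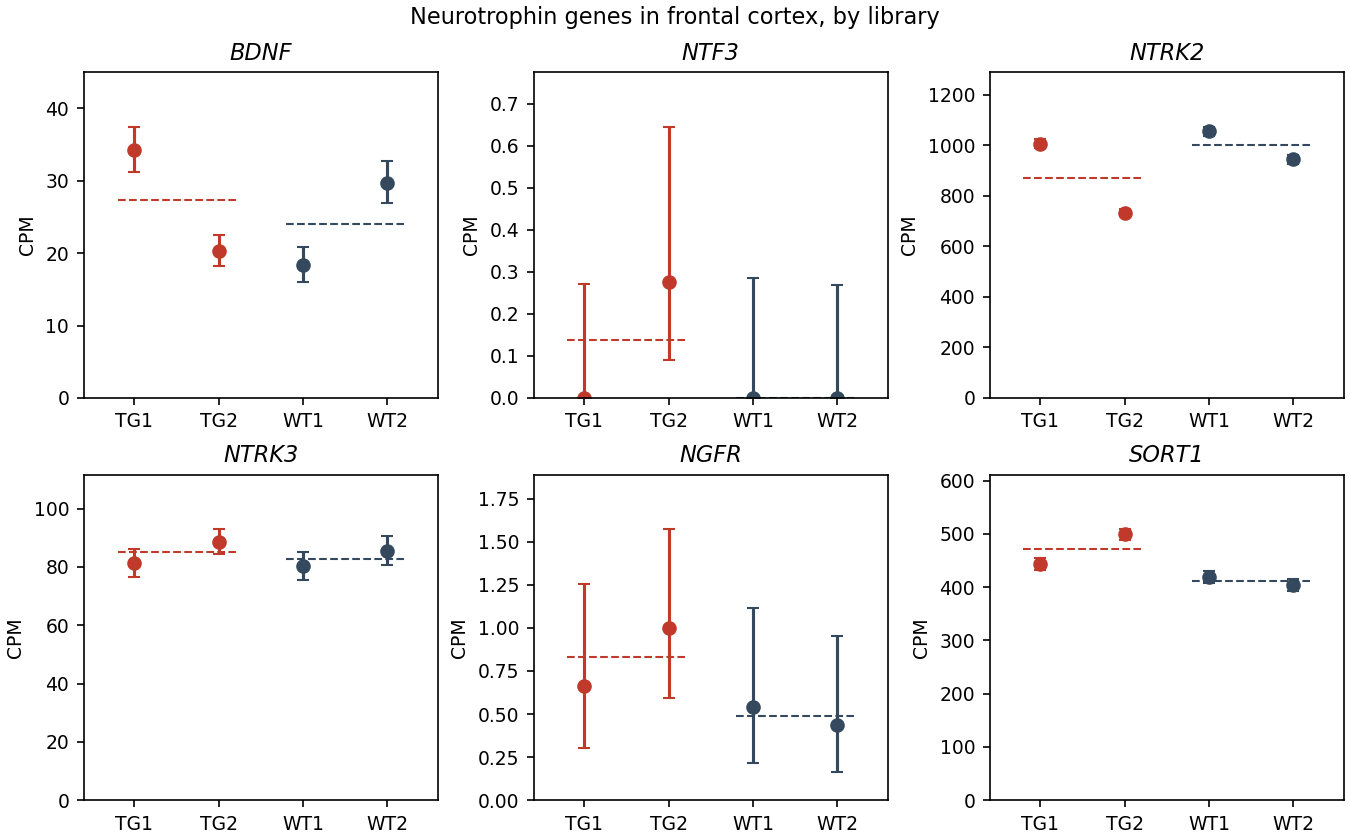
Level of each gene in CPM (vertical axes, starting at 0) in TG1, TG2, WT1 and WT2; points are libraries, bars are 95% counting intervals and dashed lines are group means. BDNF was high in TG1 (34.2 CPM) and WT2 (29.8 CPM), NTRK2 was lowest in TG2 (733 CPM), and SORT1 was higher in both TG libraries than in both WT libraries.

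The genes that neurons switch on with activity, among them targets of BDNF signalling, showed a like division of the libraries. The 20 genes of this list summed to 1557 and 898 CPM in TG1 and TG2, against 657 and 1464 CPM in WT1 and WT2. Of the 20, 14 were lowest in WT1, as BDNF was (24.1% of all genes tested were), and 7 had the same order of libraries as BDNF, TG1 above WT2 above TG2 above WT1 (3.20% of all genes tested had). The immediate early gene EGR1 was at 332 and 111 CPM in the TG libraries and 93.9 and 301 CPM in the WT libraries. NPAS4, a neuronal transcription factor known to drive BDNF in mouse, is not among the 20 but among the regulators of BDNF transcription described below. It was at 16.5 and 1.44 CPM in TG1 and TG2, against 2.32 and 17.2 CPM in WT1 and WT2. Its order of libraries was not that of BDNF, since it was lowest in TG2 and highest in WT2. EGR1 and NPAS4 were picked after their values were seen. These genes share the libraries with BDNF and with each other, and the counts are a description.

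Between TG and WT, 15 of the 20 activity-induced genes had a positive and 5 a negative log2 fold change, and the median was 0.24 (all genes tested, -0.0022). That median was 0.49 without TG2, -0.11 without TG1, -0.14 without WT1 and 0.76 without WT2. In 2 of the 20 (10%) both TG libraries lay above both WT libraries, against 19.5% of all genes tested. In 0 of the 20 (0%) they lay below, against 19.4%. FOSB, an AP-1 transcription factor gene, was at 42.7 and 38.3 CPM in TG and 21.8 and 29.0 CPM in WT cortex (log2 0.67 ± 0.20 SE, adjusted p = 0.79 in edgeR). The orphan nuclear receptor gene NR4A3 was at 57.3 and 11.9 CPM in TG1 and TG2, against 6.81 and 12.2 CPM in WT1 and WT2, so that TG1 alone stood high (log2 1.86; 0.32 without TG1).

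Markers of meningeal fibroblasts also divided the libraries this way. Their 6 genes summed to 203 and 38.3 CPM in TG1 and TG2, against 32.8 and 158 CPM in WT1 and WT2, with no marker at 0 in any library, and 3 of the 6 had the library order of BDNF. The part of tissue composition in the BDNF values was not tested.

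**Figure D2:**
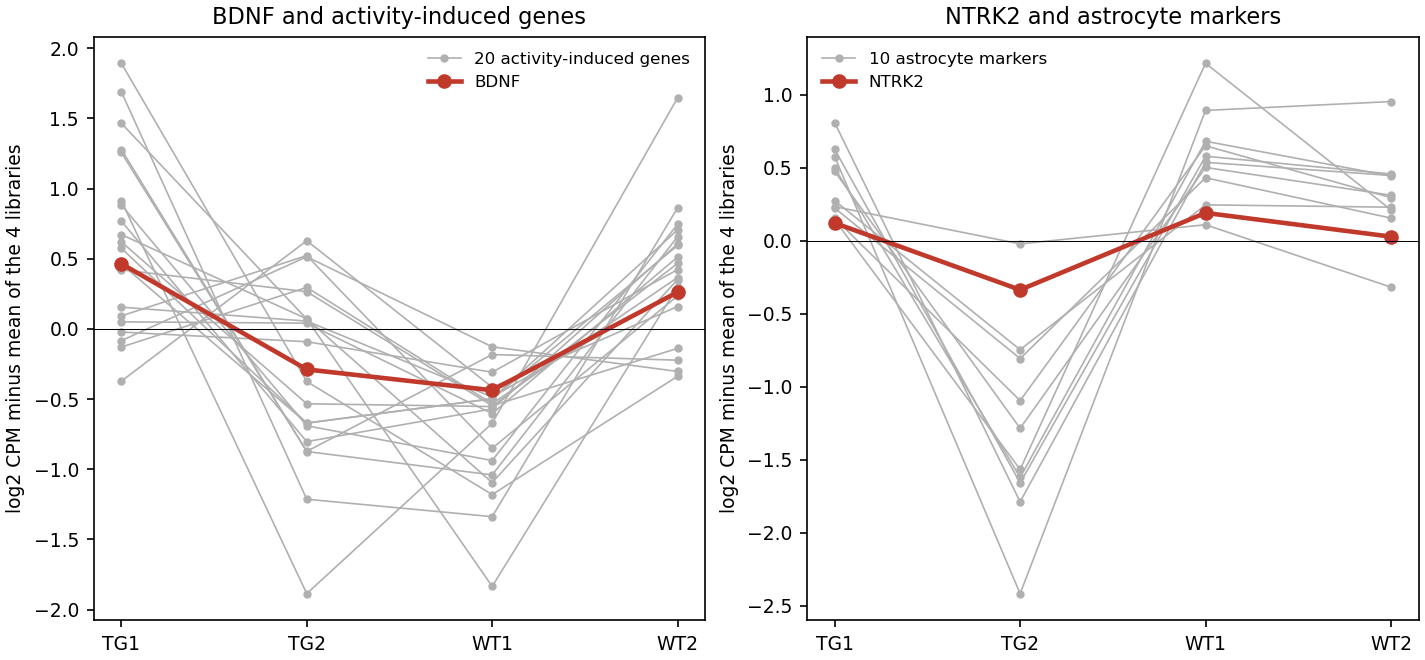
Log2 CPM of BDNF with 20 activity-induced genes (left) and of NTRK2 with 10 astrocyte markers (right) in each library, minus each gene's mean over the 4 libraries; each line joins the values of 1 gene. BDNF and most activity-induced genes lay above their mean in TG1 and WT2, and NTRK2 and 9 of the 10 astrocyte markers were lowest in TG2.

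NTF3, the gene for NT-3, was near the limit of detection. It had 0 counts in TG1 and 5 in TG2, against 0 in both WT libraries. The 5 counts correspond to 0.277 CPM, with a counting interval of 0.090 to 0.646 CPM. A count of 0 allows up to 0.220 CPM in TG1, 0.232 CPM in WT1 and 0.219 CPM in WT2 (3 counts), so a difference was not detectable at this depth. The mean of the TG libraries, 0.138 CPM, is itself below that limit. Counting intervals and limits cover counting error only.

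NTF4, the gene for the other ligand of TrkB and not among the 6, had 0 counts in every library, which allows up to 0.166 to 0.232 CPM.

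NTRK2, the gene for TrkB, was low in TG2 and similar in the other libraries. It was at 1006 and 733 CPM in TG1 and TG2, against 1056 and 944 CPM in WT1 and WT2. TG1 lay between the WT libraries and TG2 below both. The means were 869.7 ± 193 CPM in TG and 999.8 ± 79.6 CPM in WT cortex (SD, n = 2 each), a log2 fold change of -0.20 ± 0.21 (SE; 95% interval -0.72 to 0.32; adjusted p = 0.83 in edgeR). Without TG2 the log2 fold change was 0.0062 and without TG1 it was -0.45, with an adjusted p of 0.087 (range over 12 alternatives 0.087 to 0.9998). The lower value of the TG mean thus came from TG2.

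Astrocyte markers were also lowest in TG2. Their 10 genes summed to 10499 and 3884 CPM in TG1 and TG2, against 11645 and 9768 CPM in WT1 and WT2. In 9 of the 10 TG2 was the lowest library, against 35.5% of all genes tested, and the exception was GFAP, the intermediate filament gene of reactive astrocytes. The glutamate transporter gene SLC1A2 was at 4337 and 999 CPM in TG1 and TG2 and at 4921 and 4173 CPM in WT1 and WT2. Oligodendrocyte markers summed to 3147 and 1156 CPM in TG and 3234 and 2530 CPM in WT libraries, with TG2 lowest in 7 of 8, and precursor markers to 287 and 136 CPM in TG and 303 and 231 CPM in WT libraries, with TG2 lowest in 6 of 6. None of these markers was at 0. In whole tissue, fewer cells of a type and less RNA per cell cannot be told apart, and the part of glial content in the NTRK2 values was not tested.

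NTRK3, the gene for TrkC, was the steadiest of the 4 genes tested. It was at 81.3 and 88.7 CPM in TG1 and TG2, against 80.2 and 85.4 CPM in WT1 and WT2, a span of 1.10-fold in which the groups interleave. Means of 85.0 ± 5.2 CPM in TG and 82.8 ± 3.7 CPM in WT cortex (SD, n = 2 each) gave a log2 fold change of 0.04 ± 0.13 (SE; 95% interval -0.29 to 0.36; adjusted p = 0.95 in edgeR). The sign turned without TG2 (-0.031), without WT1 (-0.013) and with library totals in place of scaling (-0.011).

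The ratio of NTRK2 to NTRK3 counts within a library needs no scaling between libraries. It was 12.4 and 8.27 in TG1 and TG2, against 13.2 and 11.05 in WT1 and WT2. The ratio of SORT1 to NTRK3 was 5.45 and 5.63 in the TG libraries and 5.23 and 4.73 in the WT libraries. Both quantities show unequal change between libraries, with TG2 lowest for NTRK2 and both TG libraries higher for SORT1.

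NGFR, which encodes p75, was low in every library. It had 9 and 18 counts in TG1 and TG2, against 7 and 6 in WT1 and WT2, or 0.661 and 0.997 CPM against 0.542 and 0.439 CPM. Both TG libraries lay above both WT libraries, as in 19.5% of the genes that passed the low-count filter, which NGFR did not. The counting intervals of all 4 libraries overlapped. They were 0.302 to 1.26 and 0.591 to 1.58 CPM in TG, and 0.218 to 1.12 and 0.161 to 0.955 CPM in WT cortex. The filter left NGFR out, and in the fit without a filter its log2 fold change was 0.78 ± 0.62 (SE; adjusted p = 0.85 in edgeR). A difference was not detectable at this depth.

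SORT1, the gene for sortilin, which binds the neurotrophin precursors and also sorts BDNF for release, was the 1 gene of the 4 tested whose groups did not overlap. It was at 443 and 499 CPM in TG1 and TG2, against 419.8 and 404 CPM in WT1 and WT2. Both TG libraries lay above both WT libraries, as in 19.5% of all genes tested, so that 1 of 4 is near the background. The means were 471 ± 39.6 CPM in TG and 412 ± 10.9 CPM in WT cortex (SD, n = 2 each). The fitted difference was 1.14-fold (log2 0.19 ± 0.14 SE; 95% interval -0.15 to 0.54; adjusted p = 0.80 in edgeR). It stayed positive without each library in turn, between 0.10 without TG2 and 0.28 without TG1.

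**Figure D3:**
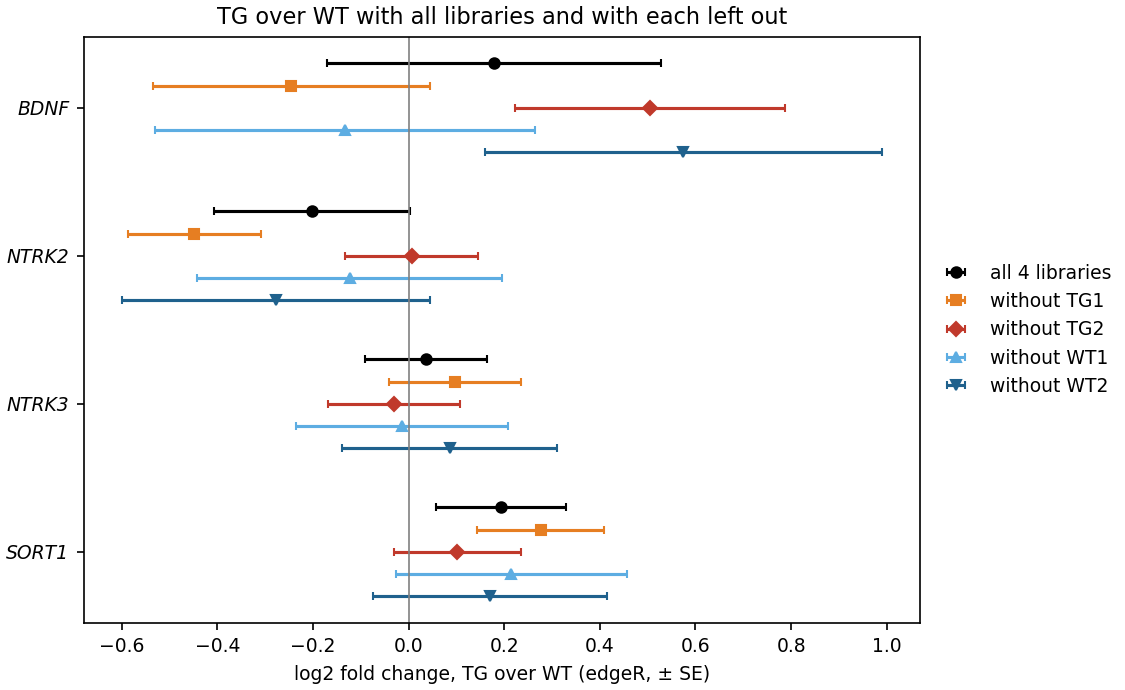
Log2 fold change of TG over WT (horizontal axis) with its SE for BDNF, NTRK2, NTRK3 and SORT1, from all 4 libraries and with each library left out. SORT1 stayed above 0 in all 5 fits, NTRK2 was at -0.45 without TG1 and 0.0062 without TG2, and BDNF took both signs.

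The other genes of the sortilin family did not move together. SORL1, a sorting receptor for APP, was at 304 and 373 CPM in TG1 and TG2, against 366 and 350.4 CPM in WT1 and WT2. SORCS1 was at 26.1 and 31.3 CPM in TG and 25.4 and 30.6 CPM in WT libraries, with the groups interleaved. SORCS2, a p75 partner for proBDNF, was lower in both TG libraries, at 61.4 and 38.3 CPM, against 70.6 and 62.7 CPM in WT cortex. SORCS3 was at 36.3 and 66.0 CPM in TG1 and TG2, against 36.3 and 40.4 CPM in WT1 and WT2, high in TG2 alone. Their log2 fold changes were -0.08 (SORL1), 0.04 (SORCS1), -0.42 (SORCS2) and 0.42 (SORCS3), and 0 of 4 passed edgeR's test (adjusted p = 0.79 to 0.97). Without TG1, SORCS2 was at log2 -0.80 and SORCS3 at 0.78, and without TG2 SORCS2 was at -0.12 and SORCS3 turned to -0.082.

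In all, 147 genes of neurotrophin signalling other than the 6 were listed by role, the activity-induced genes and the sortilin family included. Of these, 145 were in the table and 140 were kept. In edgeR 0 of the 140 passed, and 5 of the 140 had an unadjusted p under 0.05. Of all 16385 genes tested, 921 (5.62%) had such a p. DESeq2 and limma-voom also called 0. In sign 88 were higher and 52 lower in TG cortex, and the median log2 fold change was 0.04. Both TG libraries lay above both WT libraries in 31 (22.1%, against 19.5% of all genes tested) and below them in 20 (14.3%, against 19.4%). Without TG1, edgeR called 20 of 143 of these genes, 12 higher and 8 lower, where it called 9.92% of all genes; without TG2 it called 0 (0.0175% of all genes). Apart from FURIN, the genes named in the next paragraphs had the smallest p of their list, with an adjusted p of 0.79 each.

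Genes for processing and releasing the ligands were divided, with 8 of 14 higher and 6 lower in sign (median log2 fold change 0.012). PLAT encodes tissue plasminogen activator, which starts the extracellular cleavage of proBDNF by plasmin. It was lower in both TG libraries, at 34.6 and 25.7 CPM, against 56.5 and 38.8 CPM in WT1 and WT2 (log2 -0.66 ± 0.26 SE; -0.37 without WT1 and -0.90 without WT2). SCG2, a granin of dense-core vesicles, was higher in both, at 395 and 539.8 CPM in TG1 and TG2, against 294 and 366 CPM in WT1 and WT2 (log2 0.50 ± 0.21 SE). Without TG2 it was at 0.26, and without TG1 at 0.71. Both TG libraries lay above both WT libraries in 21.4% of the 14 genes, against 19.5% of all genes tested. They lay below in 28.6% of the 14, against 19.4%. FURIN, the convertase that cuts the precursors inside the cell, overlapped between groups, at 83.6 and 107 CPM in TG and 81.2 and 109 CPM in WT cortex; it was added after its values were seen (adjusted p = 0.999 in edgeR).

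Adaptors that bind activated TRK receptors were balanced, 13 of 26 higher and 13 lower in sign (median -0.0015). SHC2, a neuronal Shc adaptor gene, was at 15.8 and 14.8 CPM in TG and 20.3 and 21.1 CPM in WT cortex (log2 -0.43 ± 0.18 SE). GAB2, a docking protein for the PI3-kinase branch, was at 79.9 and 103 CPM in TG and 76.4 and 64.6 CPM in WT cortex (log2 0.38 ± 0.18 SE; 0.18 without TG2 and 0.55 without TG1). Both genes, picked by smallest p, had separate groups. Both TG libraries lay above both WT libraries in 5 of the 26 (19.2%, against 19.5% of all genes tested). They lay below in 4 of the 26 (15.4%, against 19.4%).

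Of 20 genes for TRK turnover and modulation, 13 were higher and 7 lower in sign (median 0.04). LRIG1, a membrane protein that restrains receptor tyrosine kinases, TrkB among them in mouse, was at 95.4 and 39.8 CPM in TG1 and TG2, against 113 and 136 CPM in WT1 and WT2. Its log2 fold change was -0.88 ± 0.41 SE with all libraries, -0.39 without TG2 and -1.65 without TG1. MYO6, an endocytic myosin linked to TrkB transport in mouse, was at 57.1 and 29.4 CPM in TG1 and TG2, against 69.6 and 59.4 CPM in WT1 and WT2 (log2 -0.58 ± 0.33 SE; -0.18 without TG2 and -1.13 without TG1). Without TG1 the TG group was TG2 alone. LRIG1 and MYO6 were lowest in TG2, as NTRK2 and 9 of the 10 astrocyte markers were. Of the 20 genes of this list, 7 were lowest in TG2 (35%, against 35.5% of all genes tested).

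Among 17 partners and effectors of p75, 11 were higher and 6 lower in sign (median 0.06). NDN, the gene for necdin, which binds p75 through its intracellular part, was at 108 and 159 CPM in TG1 and TG2, against 86.5 and 92.1 CPM in WT1 and WT2 (log2 0.58 ± 0.21 SE; 0.27 without TG2). RIPK2, an adaptor kinase gene for NF-κB signalling, was at 5.88 and 12.9 CPM in TG and 4.41 and 4.90 CPM in WT cortex (log2 1.02 ± 0.43 SE; 0.33 without TG2). Without TG1 NDN was at 0.83 and RIPK2 at 1.47. In both genes the TG libraries lay above the WT libraries and TG2 was the highest. Of the 17, 5 lay above in this way (29.4%, against 19.5% of all genes tested). A further 4 lay below (23.5%, against 19.4%).

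The kinases downstream of TRK receptors were higher in sign in 15 of 23 genes and lower in 8 (median 0.013), and in 10 of the 23 (43.5%, against 19.5% of all genes tested) both TG libraries lay above both WT libraries. In 2 of the 23 (8.70%, against 19.4%) they lay below. CAMK4, a calcium-dependent kinase of the CREB pathway, was at 152 and 169 CPM in TG and 110.1 and 128 CPM in WT cortex (log2 0.43 ± 0.14 SE). Of 8 inhibitory neuron markers, 6 (75%, against 19.5% of all genes tested) lay above both WT libraries in both TG libraries. PVALB, the marker of parvalbumin interneurons, lay below them, at 29.6 and 25.4 CPM in TG and 44.5 and 35.5 CPM in WT cortex (log2 -0.54, adjusted p = 0.79 in edgeR). The 8 inhibitory neuron markers summed to 807 and 883 CPM in TG and 686 and 709 CPM in WT cortex. Excitatory neuron markers went the other way: 1 of 8 (12.5%) lay above and 3 of 8 (37.5%, against 19.4%) lay below. CAMK2A, 1 of these 8, is also 1 of the 23 kinases. The part of either neuron type in the kinase values was not tested.

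Of 15 regulators of BDNF transcription, 10 were higher and 5 lower in sign (median 0.04). USF2 is a basic helix-loop-helix factor of the family that binds BDNF promoters. It was at 110.2 and 91.6 CPM in TG and 136 and 134 CPM in WT cortex (log2 -0.42 ± 0.14 SE). Without TG2 it was at -0.30, and without TG1 at -0.56. MEF2C, an activity-regulated neuronal factor, was at 1214 and 1404 CPM in TG and 889 and 1039 CPM in WT cortex (log2 0.44 ± 0.18 SE). Neither followed the library order of BDNF, which 3 of the 15 did.

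**Figure D4:**
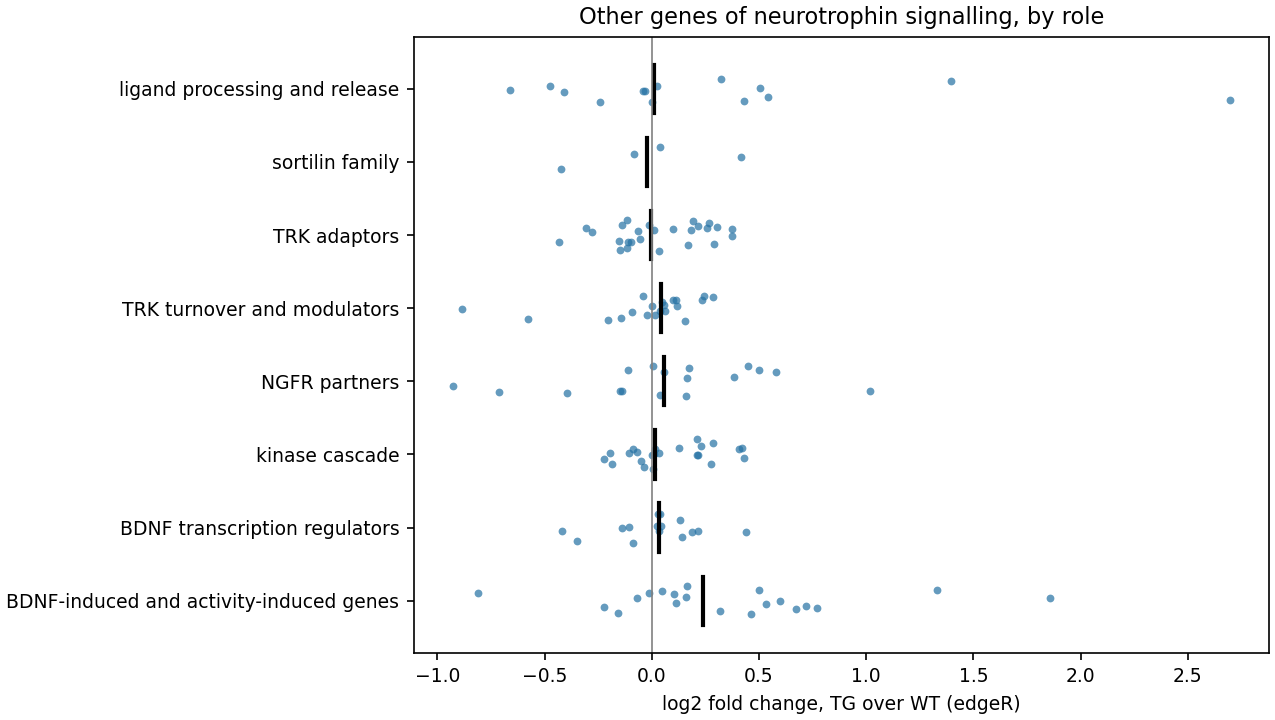
Log2 fold change of TG over WT (horizontal axis) for each kept gene of 8 lists of neurotrophin signalling; points are genes and black bars are list medians. Medians lay between -0.023 for the sortilin family and 0.24 for activity-induced genes, and no gene passed edgeR's test.

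BDNF and NTRK2 were the 2 tested genes with the widest range over the 4 libraries. The patterns nearest to each were found by Euclidean distance between centred log2 CPM values. The search covered 11973 genes with a mean count of at least 50 and a symbol, LOC and tRNA names left out. Nearest to BDNF were DNAJB5, a co-chaperone gene (distance 0.070), HTR1F, a serotonin receptor gene (0.12), and NCAN, which encodes the matrix proteoglycan neurocan (0.15). DNAJB5 was at 39.5 and 23.4 CPM in TG1 and TG2, against 22.4 and 35.1 CPM in WT1 and WT2. Nearest to NTRK2 were TNRC6B, a gene of microRNA-guided silencing (0.030), PPIE, a cyclophilin gene (0.032), and ANP32B (0.034). TNRC6B was at 173 and 124 CPM in TG1 and TG2, against 179 and 158 CPM in WT1 and WT2. With 4 libraries many genes lie close, and when a library was left out 0 of the 3 genes remained nearest to BDNF and at most 1 of the 3 to NTRK2.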

How the data were processed

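The values deposited are raw read counts, 1 column for each of 4 libraries and 1 row for each gene symbol. Tools listed in the submitters' processing notes are kallisto 0.46.2, featureCounts 1.5.2 and STAR 2.5.3a, with no role for any. The sources used here give no genome build, annotation or strandedness, so positions and sequences are left out. RNA came from a column kit and libraries from KAPA Hyper chemistry, per the labels.

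Counts were analysed in R 4.3.3. Genes were kept with filterByExpr and scaled by TMM, and TG was compared with WT by the quasi-likelihood test of edgeR 4.0.16, with Benjamini-Hochberg adjustment over the 16385 genes kept and a threshold of 0.05. The fit left 2 residual degrees of freedom, and the biological coefficient of variation was 24.5%. DESeq2 1.42.0 and limma-voom (limma 3.58.1) were alternatives. Log2 CPM used a prior count of 2. Chi-square per degree of freedom between libraries was 5.81 to 34.9, so no pair of libraries differed by counting error alone. A count of 3 corresponds to 0.166 to 0.232 CPM.

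The members and gene lists were chosen with earlier results of these data known. Named genes were all 6 members, the 2 genes of smallest p in each list (every gene of the sortilin list and of a short list of ligand and receptor genes outside the 6), and the 3 genes nearest to each of 2 members in pattern. The results of 3 genes that met this rule are not reported here. The steps were tested on simulated counts. Of further markers, 8 of 8 microglial, 5 of 6 endothelial and 5 of 6 mural genes were lower in sign in TG cortex. So were 2 of 2 kept Schwann cell and 3 of 8 excitatory neuron genes, against 50.4% of all genes tested. Both TG libraries lay below both WT libraries in 5 microglial (62.5%), 4 endothelial (66.7%), 1 mural (16.7%) and 0 Schwann cell genes, against 19.4%.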

Additional observations from a re-analysis of the deposited data

How the results depend on the processing

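The 4 tested members had 12 alternatives each, and none passed the threshold under any of them. Over the 8 alternatives that kept all libraries, BDNF lay between 0.14 and 0.19 (log2), NTRK2 between -0.24 and -0.19 and SORT1 between 0.14 and 0.21. NTRK3 and SORCS1 turned to -0.011 each with library totals in place of scaling, which moved the median of all genes to -0.048. With 1 library left out in turn, ranges were -0.25 to 0.57 for BDNF, -0.45 to 0.0062 for NTRK2, -0.031 to 0.097 for NTRK3 and 0.10 to 0.28 for SORT1, and 0.17 to 0.50 CPM for the NGFR difference. They were -0.24 to 0.055 for SORL1, -0.10 to 0.18 for SORCS1, -0.80 to -0.12 for SORCS2 and -0.082 to 0.78 for SORCS3. Genes called numbered 0 in the main edgeR test, 48 in DESeq2, 5 with no low-count filter and 0 to 1710 with a library left out, and listed signalling genes 0 to 20. The cause was not tested. Fits on 3 libraries assume that a lone library varies like the other group.

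The replicate numbers are not stated to pair animals, and same-numbered libraries had a correlation of -0.13 in their deviations. With the replicate number as a block edgeR called 0 genes, and BDNF was at 0.17, NTRK2 at -0.22, NTRK3 at 0.04 and SORT1 at 0.19. With the numbers crossed, a setting chosen after seeing the data, it called 0.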

Other observations

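MMP3, MMP7 and MMP9, genes for proteases that act on released neurotrophin precursors, and SERPINI1, for a protease inhibitor, were high in TG2 alone. They were picked after their values were seen. MMP3, a matrix metalloproteinase gene, had 9 and 139 counts in TG1 and TG2, against 14 and 3 in WT1 and WT2. MMP7, whose product cuts proBDNF, had 0 and 27 counts in TG1 and TG2, against 1 and 0 in WT1 and WT2, and MMP9 had 2 and 17 against 4 and 3. SERPINI1, which encodes the protease inhibitor neuroserpin, was at 418 and 636 CPM in TG1 and TG2, against 355 and 428 CPM in WT1 and WT2. In each of these 4 genes TG1 lay within or below the range of the WT libraries. Other protease genes went the other way. PLAT was lowest in TG2 (25.7 CPM), and PLG had 5 and 1 counts in TG1 and TG2, against 2 and 4 in WT1 and WT2. The filter on low counts left out MMP7, MMP9 and PLG.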
